A study of Mus musculus with 74 samples.

Results

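Cells balance cholesterol by making it, taking it up and letting it out, and the 32 genes described here cover these routes in immune cells of mouse tumor and spleen. They are the 18 enzyme genes of synthesis (7 of the mevalonate steps and 11 of the sterol steps), 5 genes of the sterol sensor and its transcription factors, 4 genes of cholesterol uptake, transport and storage, and 5 genes of efflux. They were named one by one as rows of the deposited count table of 49480 gene symbols, and all 32 matched the gene annotation. None had under 10 mean counts in every group.

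The mice were C57BL/6J, aged 12 or 3 months, and carried MC38 cells, a mouse colon carcinoma line, under the skin. At day 10 of growth, 1000 cells per library were sorted from tumor and spleen and sequenced by Smart-seq2, a full-length RNA protocol for small samples. The sort gates were CD45+ CD11b+ CD11c+ MHCII+ for dendritic cells, CD45+ CD11b+ F4/80+ for macrophages, CD45+ TCRb+ CD4+ CD25+ for regulatory T cells, CD45+ TCRb+ CD4+ CD25- for conventional CD4 T cells and CD45+ TCRb+ CD8+ for CD8 T cells. No group carried an engineered allele in the labels, and all spleens came from the same kind of tumor-bearing mouse, so that spleen is a second organ and not a tumor-free control. With 5 cell types, 2 tissues and 2 ages there were 20 groups and 74 libraries. Each group of macrophages, regulatory T cells and CD8 T cells held 4 libraries. Dendritic cells had 3 libraries from tumor at 12 months, 4 from tumor at 3 months and 3 from spleen at each age. Conventional CD4 T cells had 4 from tumor at 12 months, 2 from tumor at 3 months, 4 from spleen at 12 months and 3 from spleen at 3 months. Replicate 1 of each dendritic cell group was male and all other libraries were female. In 2 spleen dendritic cell libraries, replicates 3 and 4 at 3 months, the age tag gave 12 months, and the titles were followed.

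Library totals ran from 1652812 to 9115858 counts, with a median of 4679409.5. T cell markers separated T cell from myeloid libraries, but other markers went across the gates. The 8 T cell markers summed to at least 3961 CPM (counts scaled to a common library total) in every T cell library and to at most 271 CPM in every myeloid library. Some libraries stood apart. In tumor dendritic cells all 8 macrophage markers were detected and summed to 2266 to 12009 CPM, against 299.8 to 478 CPM in spleen dendritic cells, and replicate 2 of both ages held the 2 highest sums, 12009 and 10840 CPM. They exceeded the 8 dendritic cell markers, at 919.8 to 2634 CPM in tumor, against 1762 to 2518 CPM in spleen, in 6 of 7 tumor libraries. These dendritic cell markers also summed to 752 to 1394 CPM in spleen T cell libraries, so their sum was not specific to dendritic cells. The 8 B cell markers summed to 547 to 3673 CPM in spleen dendritic cells and 834 to 3317 CPM in spleen macrophages, against at most 38.0 CPM in tumor libraries of either type. The 8 neutrophil markers reached 3867 to 38932 CPM in spleen macrophages, against 13.7 to 782 CPM in tumor macrophages. In 7 of 8 spleen macrophage libraries they exceeded the 8 macrophage markers, which summed to 9389 to 16466 CPM in tumor macrophages and 2603 to 4049 CPM in spleen ones. The 5 regulatory T cell markers summed to 1113 to 2716 CPM in the CD25- cells of tumor and 231 to 1264 CPM in those of spleen, against 3173 to 5355 CPM in the libraries sorted as regulatory T cells. The mitochondrial share of counts was 0.817% to 1.47% in macrophages and 0.865% to 2.01% in regulatory T cells, against 3.16% to 11.2% in the other 3 types. A difference between those types can therefore not be told apart from this split of the libraries.

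Cholesterol is built from acetyl-CoA through mevalonate and squalene to lanosterol, which the sterol enzymes trim step by step. The SREBP transcription factors switch on these enzymes when the membrane of the endoplasmic reticulum is low in cholesterol: Scap carries them to the Golgi, and the Insig proteins hold them back. When sterols are plentiful, oxysterols activate the liver X receptors (LXR), encoded by Nr1h3 and Nr1h2, which switch on the efflux pumps and the receptor-degrading ligase Mylip. Macrophages are known for both routes, since they take up the lipid of dead cells and pass cholesterol out again.

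The promoters of 26 of the 32 members, 35 windows in all, were found in the RefSeq table of the GRCm38.p6 (mm10) build, each from 250 bases before to 50 bases after a start site. A CCAAT box, the letters CCAAT on either strand and the kind of site that factor NF-Y binds beside SREBP, stood in 14 of the 15 synthesis enzyme genes with a window (all but Acat2) and in 1 of 4 efflux genes (Mylip). It stood in 41.1% of all 27025 genes of the table. The core TCACNCCAC of the sterol regulatory element, on either strand, was found in Hmgcs1 alone of the 26 members and in 1.44% of all genes. The strict LXR repeat, AGGTCA, any 4 bases and AGGTCA again on either strand, was found in no member and in 0.0148% of all genes. A variant of it, GGTTA, any 4 bases and CGGTCA on either strand, was picked after reading the Abca1 window, so its presence there is no finding. It was found in 4 of the 27025 genes, of which Abca1 and Srebf1 are members. A match is a string of letters, not a measured site. Shown are Hmgcs1 and Mvk, synthesis genes that rose in tumor dendritic cells, and Abca1 and Srebf1, the members that share the variant repeat. Capitals mark the sterol core and 4 CCAAT matches in Hmgcs1, 5 CCAAT matches in Mvk, the variant repeat in Abca1, and the variant repeat and 1 CCAAT match in Srebf1, which has 3 windows of which 1 is shown. Each is written 5′ to 3′ on the strand of its gene. No base lay in matches of 2 motifs.
Hmgcs1, chr13:119690101-119690400, plus strand: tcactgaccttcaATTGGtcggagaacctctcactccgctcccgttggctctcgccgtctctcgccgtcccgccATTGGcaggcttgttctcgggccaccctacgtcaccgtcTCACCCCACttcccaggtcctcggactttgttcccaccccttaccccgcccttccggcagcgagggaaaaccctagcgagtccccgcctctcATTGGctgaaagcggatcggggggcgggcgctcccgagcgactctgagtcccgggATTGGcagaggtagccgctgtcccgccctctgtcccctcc
Mvk, chr5:114444019-114444318, plus strand: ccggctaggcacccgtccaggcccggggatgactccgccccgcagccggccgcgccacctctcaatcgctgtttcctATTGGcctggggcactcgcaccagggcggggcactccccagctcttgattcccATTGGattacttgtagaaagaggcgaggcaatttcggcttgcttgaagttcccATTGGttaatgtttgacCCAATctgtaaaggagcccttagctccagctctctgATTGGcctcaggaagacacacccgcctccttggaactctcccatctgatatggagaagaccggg
Abca1, chr4:53159846-53160145, minus strand: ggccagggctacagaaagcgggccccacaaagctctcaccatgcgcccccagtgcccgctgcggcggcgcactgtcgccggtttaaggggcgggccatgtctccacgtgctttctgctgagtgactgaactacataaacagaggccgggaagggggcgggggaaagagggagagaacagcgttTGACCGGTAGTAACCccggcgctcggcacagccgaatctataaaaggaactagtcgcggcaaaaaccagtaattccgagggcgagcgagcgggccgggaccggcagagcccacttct
Srebf1, chr11:60210422-60210721, minus strand: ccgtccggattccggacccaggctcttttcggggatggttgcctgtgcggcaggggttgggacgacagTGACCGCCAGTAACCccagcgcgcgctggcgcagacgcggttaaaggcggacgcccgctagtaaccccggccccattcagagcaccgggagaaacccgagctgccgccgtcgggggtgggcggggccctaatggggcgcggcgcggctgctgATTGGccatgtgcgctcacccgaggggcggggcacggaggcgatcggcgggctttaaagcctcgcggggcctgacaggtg

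Tumor was set against spleen in each cell type, with both ages weighted equally. Levels are CPM of the library total. Fold changes are from edgeR's quasi-likelihood fit, are given as log2 of tumor over spleen with their standard error (SE), and count as called at an adjusted p under 0.05, with Benjamini-Hochberg adjustment over all genes tested. The fit rescales libraries by TMM, which added 0.32 to the log2 ratio of plain CPM in dendritic cells, 0.24 in regulatory T cells, 0.21 in macrophages, 0.09 in CD8 T cells and 0.05 in conventional CD4 T cells. No label says that libraries of a group came from separate animals, so p-values measure only the spread between these libraries. In these bulk samples, fewer cells of a kind and less RNA per cell cannot be told apart.

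In dendritic cells most of the synthesis pathway was higher in tumor than in spleen. Of the 18 synthesis enzymes 14 rose and none fell, with a median log2 fold change of 0.96, against -0.05 over all 13981 genes tested. Across all members 21 rose and 1 fell, while 24.0% of all genes tested rose and 23.3% fell. All 18 enzymes had a fold change above 0, also with DESeq2 size factors, but by plain CPM 15 of 18 had the higher mean in tumor. The mitochondrial share of counts was 3.16% to 5.80% in tumor dendritic cells and 5.48% to 9.39% in spleen ones, and its part was not tested. B cell markers summed to 547 to 3673 CPM in spleen dendritic cells, against at most 34.1 CPM in tumor ones. Plasma cell markers summed to 1762 to 8337 CPM in spleen, against 358 to 570 CPM in tumor. The part of these markers was not tested either. Of the 7 mevalonate genes all but Acat2 rose, and of the 11 sterol genes all but Lss, Sc5d and Dhcr7.

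Among the mevalonate steps, Pmvk, which phosphorylates mevalonate phosphate, had 94.0 to 247 CPM in the 7 tumor libraries with a median of 146 CPM, against 33.0 to 66.2 CPM with a median of 49.9 CPM in the 6 spleen libraries. No tumor library overlapped a spleen library, and the log2 fold change was 1.99 (SE 0.22, adjusted p = 7.27e-06). Mvk, the mevalonate kinase, had 24.0, 26.7 and 36.4 CPM as lowest, median and highest in tumor, against 4.02, 14.0 and 21.1 CPM in spleen. These groups also lay apart, with a log2 fold change of 1.64 (adjusted p = 1.31e-05, SE 0.20). Hmgcs1, the synthase at the entry to the pathway, had 139, 187 and 211 CPM in tumor and 99.0, 120 and 159 CPM in spleen. Its libraries overlapped, and its log2 fold change was 0.86 (SE 0.12, adjusted p = 3.06e-05). Fdps, Mvd and the sparse Idi1, at a mean of 4.62 CPM in tumor and 2.55 CPM in spleen, rose by 1.48, 0.70 and 1.41.

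Among the sterol steps, Msmo1, the methyl sterol oxidase, had 100.2, 146 and 193 CPM in tumor, against 45.1, 70.9 and 90.7 CPM in spleen. Its log2 fold change was 1.37 (SE 0.15, adjusted p = 5e-06), with no overlap. Cyp51, the lanosterol demethylase, had 62.2, 97.5 and 138 CPM in tumor, against 28.8, 43.4 and 66.1 CPM in spleen. Its groups lay apart within each age but touched across ages, with a log2 fold change of 1.56 (adjusted p = 5.3e-06, SE 0.18). Ebp, the sterol isomerase, had 67.3, 73.2 and 82.5 CPM in tumor and 37.2, 49.0 and 55.7 CPM in spleen, with no overlap and a log2 fold change of 0.98 (adjusted p = 1.69e-05, SE 0.13). Sqle, the squalene epoxidase, which likewise lay apart, rose by 1.40, and Fdft1, Tm7sf2, Nsdhl and Hsd17b7 rose by 0.66 to 1.12. The call of Hsd17b7 was lost in 10 alternatives.

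The sensor Insig1, itself a target of SREBP, moved with the enzymes. It had 60.6, 74.8 and 98.0 CPM in tumor dendritic cells, against 23.7, 32.6 and 45.1 CPM in spleen. The groups did not overlap, and the log2 fold change was 1.598 (SE 0.15, adjusted p = 6.82e-07). Srebf1, which encodes SREBP-1, rose by 0.70 (SE 0.14, adjusted p = 0.00088), while Scap was the member that fell, by 0.64 (SE 0.18, adjusted p = 0.00961). Srebf2 and Insig2 did not pass the test, at log2 fold changes of 0.13 and -0.37.

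Of the uptake and storage genes, Npc2, which carries cholesterol out of lysosomes together with Npc1, changed most clearly. It had 1134, 1198 and 1962 CPM in tumor dendritic cells, against 308, 363 and 451 CPM in spleen, with a log2 fold change of 2.22 (adjusted p = 3.12e-08, SE 0.15). Soat1, which esterifies cholesterol for storage, had 224, 266 and 370 CPM in tumor, against 134, 142 and 164 CPM in spleen, with a log2 fold change of 1.21 (adjusted p = 2.91e-06, SE 0.13). Stard4, a sterol transfer protein, rose by 1.23 (SE 0.17, adjusted p = 3.43e-05). In all 3 the groups lay apart, whereas Npc1 did not pass the test, at -0.23 (SE 0.19).

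Of the efflux genes Abca1 and Nr1h2 rose in dendritic cells. Abca1, the pump that loads cholesterol onto lipid-poor apolipoprotein, had 33.4, 127.7 and 20.7 CPM in the 3 tumor libraries at 12 months and 71.8, 172 (replicate 2), 80.6 and 29.8 CPM in the 4 at 3 months, against 8.23, 16.9 and 8.98 CPM in spleen at 12 months and 7.998, 3.76 and 12.2 CPM in spleen at 3 months. Every tumor library lay above every spleen library, and the log2 fold change was 3.18 (SE 0.57, adjusted p = 0.0013). The 2 highest libraries, replicate 2 of both ages, were the 2 with the most macrophage marker RNA. Without them the log2 fold change of Abca1 was 2.35 (adjusted p = 0.000129), Npc2 stood at 2.01, and 25 members were called, among them all 22 of the full fit. The macrophage marker sum differed between the tissues in the other libraries too, and its part in these results was not tested. Without the 2 spleen libraries whose age labels conflict, 18 members were called, and Abca1, at 2.98 (adjusted p = 0.0501), Tm7sf2 at 1.11 (adjusted p = 0.1), Idi1 at 1.34 (adjusted p = 0.162) and Hsd17b7 at 0.72 (adjusted p = 0.118) were not among them.

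**Figure D1:**
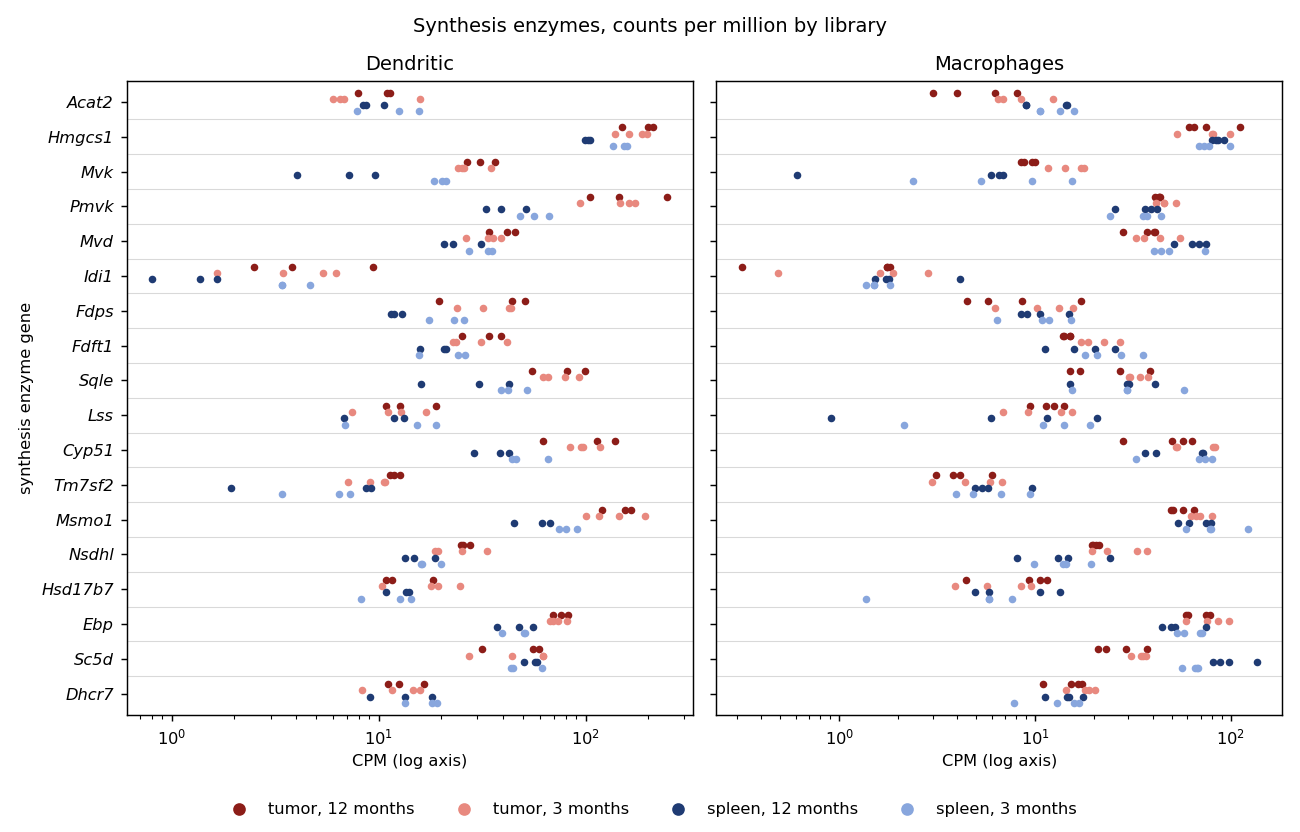
CPM of the 18 synthesis enzyme genes, on a log axis, in every library of dendritic cells (left) and macrophages (right), with tumor in red and spleen in blue and the 12-month libraries in the darker shade. For Msmo1 the tumor dendritic cells sit between 100.2 and 193 CPM and the spleen ones between 45.1 and 90.7 CPM, while in macrophages tumor, at 49.4 to 79.9 CPM, overlaps spleen, at 53.5 to 123 CPM.

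In macrophages synthesis genes went both ways, and the clearest differences of members were those of Npc2, Abca1 and the enzyme gene Sc5d. Of the 17 synthesis enzymes tested (Idi1 was filtered) 4 rose and 2 fell, with a median log2 fold change of 0.13, against -0.06 over all 12876 genes. By plain CPM 7 of the 17 had the higher mean in tumor, and the median of the log2 ratios was -0.08. Over all members 13 rose and 3 fell, while 23.9% of all genes tested rose and 27.8% fell, and 51.7% were called in either direction.

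Sc5d, the lathosterol oxidase near the end of the pathway, had 20.9, 32.9 and 37.3 CPM in the 8 tumor libraries of macrophages, against 56.6, 74.7 and 136 CPM in the 8 spleen libraries. No library overlapped, and the log2 fold change was -1.17 (SE 0.14, adjusted p = 1.04e-06). Nsdhl, a sterol dehydrogenase, had 19.5, 20.8 and 37.3 CPM in tumor and 8.07, 14.2 and 24.0 CPM in spleen, with a log2 fold change of 0.92 (adjusted p = 0.00115, SE 0.21). Pmvk had 40.8, 43.2 and 52.7 CPM in tumor and 24.1, 36.8 and 44.0 CPM in spleen (log2 fold change 0.54, SE 0.14, adjusted p = 0.00303). Ebp, at 58.7, 75.3 and 97.3 CPM in tumor and 44.7, 55.5 and 74.5 CPM in spleen, rose by the same amount, 0.54 (SE 0.14, adjusted p = 0.00265). The libraries of these last 3 genes overlapped. Mvk rose by 1.10 and Acat2, which condenses acetyl-CoA, fell by 0.64. The call of Acat2 was lost in 11 alternatives, with edgeR adjusted p up to 0.143.

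Of the control genes in macrophages, Srebf1 had 83.6, 110 and 129 CPM in tumor, against 57.5, 83.6 and 98.0 CPM in spleen, with a log2 fold change of 0.64 (adjusted p = 0.000255, SE 0.12). Srebf2, which encodes the SREBP that acts mainly on cholesterol genes, fell by 0.48 (SE 0.15, adjusted p = 0.0118). Insig2 rose by 0.84 and Insig1 by 0.45. Npc2 had 1742, 2012 and 2192 CPM in tumor macrophages, against 606, 767 and 890 CPM in spleen, with no overlap and a log2 fold change of 1.63 (adjusted p = 8.89e-11, SE 0.10). Its partner Npc1, the lysosomal membrane protein, had 47.4, 78.5 and 97.5 CPM in tumor and 30.3, 37.6 and 66.8 CPM in spleen (log2 fold change 1.06, SE 0.19, adjusted p = 0.0001). Soat1 rose by 0.43, at a mean of 455 CPM in tumor and 391 CPM in spleen.

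Abca1 had the largest fold change of the members in macrophages. Its level was 290, 377, 169.5 and 195 CPM in tumor at 12 months and 106, 211, 89.8 and 131 CPM in tumor at 3 months, against 15.1, 25.5, 23.4 and 14.6 CPM in spleen at 12 months and 43.1, 13.8, 19.3 and 15.9 CPM in spleen at 3 months. Every tumor library lay above every spleen library, and the log2 fold change was 3.35 (SE 0.27, adjusted p = 1.59e-08). Abcg1, the pump that passes cholesterol to mature lipoprotein, and Nr1h2 rose by 0.40 and 0.42, while Nr1h3 and Mylip did not pass the test. The TMM shift of 0.21 is part of both values. Abcg1 lay apart at 12 months only. At 3 months it had 305, 460, 330 and 561 CPM in tumor, against 465, 422, 476 and 446 CPM in spleen. Neutrophil and B cell marker RNA, given above, was higher in every spleen macrophage library than in any tumor one, and macrophage marker RNA lower. The 6 plasma cell markers summed to 507 to 712 CPM in tumor macrophages and 1652 to 10948 CPM in spleen ones. The part of these differences in the results was not tested. Without the 3 tumor libraries with 273, 303 and 845 CPM of stromal and tumor cell markers (at most 42.8 CPM in the others), 13 members were called, all of them among the 16, and Abca1 stood at 3.24. Acat2, at -0.57 (adjusted p = 0.102), Insig1, at 0.3995 (adjusted p = 0.0767), and Soat1, at 0.38 (adjusted p = 0.0507), were not among them.

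The tumor over spleen difference of dendritic cells was then set against that of macrophages, as an interaction in a fit of all 20 groups. This comparison was added after the data were seen. The difference was greater in dendritic cells for 15 members and smaller for 3, while 12.0% of the 20244 genes tested were greater and 6.49% smaller. Of the 18 synthesis enzymes 10 were greater and none smaller, with a median of 1.02, against 0.13 over all genes. The 10 were Hmgcs1, Pmvk, Mvd, Fdps, Fdft1, Sqle, Cyp51, Tm7sf2, Msmo1 and Sc5d, with interactions between 0.72 and 1.43 on the log2 scale. The clearest were Msmo1 (1.43, SE 0.21, adjusted p = 2.3e-07) and Sc5d (1.38, SE 0.23, adjusted p = 3.16e-06), the second of which fell in macrophages and did not pass the test in dendritic cells. Stard4 (1.58), Insig1 (1.14), Soat1 (0.78), Srebf2 (0.61) and Npc2 (0.59) were also greater, and Npc1 (-1.30), Insig2 (-1.20) and Scap (-0.63) were smaller. None of the 5 efflux members differed by edgeR's test, with 1 at an unadjusted p under 0.05. DESeq2 called the same 18 members and so no efflux member either. Abca1 had an interaction of -0.18 (SE 0.57). Without the libraries numbered 1, 8 members were called. Macrophage and dendritic cell libraries also differed in mitochondrial share, and that part cannot be told apart.

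In regulatory T cells, which restrain other T cells, storage and transport genes were higher in tumor and efflux genes lower. All 4 uptake, transport and storage members rose, and of the 4 efflux members tested 3 fell and 1 rose, with a median log2 fold change of -1.31 against -0.05 over all 13345 genes. Of the 18 synthesis enzymes 5 rose and 3 fell, with a median of -0.14. By plain CPM 5 of the 18 had the higher mean in tumor, and the median of the log2 ratios was -0.36. Over all members 12 rose and 6 fell, while 25.9% of all genes tested rose and 27.6% fell.

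Npc2 had 747, 857 and 1092 CPM in the 8 tumor libraries of regulatory T cells, against 339, 379 and 453 CPM in the 8 spleen libraries, with a log2 fold change of 1.40 (adjusted p = 1.92e-10, SE 0.10). Soat1 had 116, 136 and 169 CPM in tumor and 82.1, 102 and 137 CPM in spleen (log2 fold change 0.65, SE 0.11, adjusted p = 5.76e-05). Stard4 had 55.2, 74.2 and 86.5 CPM in tumor and 40.4, 49.7 and 65.3 CPM in spleen (log2 fold change 0.75, SE 0.13, adjusted p = 4.04e-05). Only Npc2 of these 3 had no overlap, and Npc1 rose by 0.53.

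Among the synthesis genes of regulatory T cells, Ebp had 91.2, 115 and 127 CPM in tumor, against 64.3, 69.9 and 82.8 CPM in spleen. It lay apart, at a log2 fold change of 0.85 (adjusted p = 2.43e-07, SE 0.10). Pmvk, Msmo1, Nsdhl and Hsd17b7 rose by 0.40 to 0.88. Dhcr7, which makes cholesterol from its last precursor by this route, had 18.1, 25.7 and 29.7 CPM in tumor and 31.2, 48.1 and 57.5 CPM in spleen, again apart, and fell by 0.64 (SE 0.16, adjusted p = 0.00241). Acat2 fell by 0.78 and Mvk by 0.62. Insig2 had 30.2, 44.9 and 58.1 CPM in tumor and 23.9, 31.7 and 44.6 CPM in spleen (log2 fold change 0.69, SE 0.15, adjusted p = 0.000611), and Srebf1 rose by 0.32. The TMM shift of 0.24 is part of the Srebf1 value. The 15 cell cycle genes, of which 11 rose and none fell, ran in sum from 975 to 3098 CPM in tumor libraries and from 807 to 1419 CPM in spleen ones, with the 2 highest sums in tumor replicate 4 of both ages. Without those 2 libraries 18 members were called, 16 of them shared with the full fit. Nsdhl (adjusted p = 0.0585) and Hsd17b7 (adjusted p = 0.0577) were not among them.

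The efflux genes of regulatory T cells went down with large fold changes. Abca1 had 0.965, 1.93 and 7.07 CPM in tumor, against 8.95, 13.0 and 22.3 CPM in spleen (log2 fold change -2.12, SE 0.35, adjusted p = 2.68e-05). Mylip, the ligase that marks lipoprotein receptors for breakdown, had 6.9985, 13.9 and 17.5 CPM in tumor, against 26.9, 44.5 and 59.2 CPM in spleen (log2 fold change -1.50, SE 0.19, adjusted p = 9.43e-07). Abcg1 had 125, 182 and 275 CPM in tumor, against 392, 482 and 599.9 CPM in spleen (log2 fold change -1.11, SE 0.16, adjusted p = 5.39e-06). In all 3 every tumor library lay below every spleen library. Nr1h2, at means of 123 CPM in tumor and 121 CPM in spleen, rose by 0.26 on the TMM scale.

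In conventional CD4 T cells 27.2% of all genes tested were called in either direction, and the calls of members moved with single libraries. Of 32 members 2 rose (Soat1 and Nr1h2) and 6 fell (Fdps, Fdft1, Sqle, Dhcr7, Abca1 and Mylip), while 16.0% of the 14661 genes tested rose and 11.2% fell. Of the 18 synthesis enzymes 4 fell and none rose, with a median of -0.40, against 0.04 over all genes. Abca1 had 2.03, 5.76 and 14.1 CPM in the 6 tumor libraries, against 7.19, 20.4 and 31.2 CPM in the 7 spleen libraries (log2 fold change -1.26, SE 0.38, adjusted p = 0.015). Mylip had 21.6, 42.6 and 49.4 CPM in tumor and 36.1, 62.2 and 85.5 CPM in spleen (log2 fold change -0.70, SE 0.21, adjusted p = 0.0137). Both overlapped between the tissues across the ages and lay apart at 12 months. The sum of regulatory T cell markers, at 1113 to 2716 CPM in tumor, against 231 to 1264 CPM in spleen, moved with the tissue in these CD25- cells, and its part in this comparison was not tested.

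Of the enzymes, Fdft1, the squalene synthase, had 7.98, 16.1 and 21.1 CPM in tumor conventional CD4 T cells, against 22.4, 25.001 and 29.6 CPM in spleen (log2 fold change -0.66, SE 0.24, adjusted p = 0.0443). Sqle had 9.39, 21.6 and 26.7 CPM in tumor, against 29.9, 31.9 and 43.0 CPM in spleen (log2 fold change -0.60, SE 0.23, adjusted p = 0.0466). In both every tumor library lay below every spleen library. Fdps, at 3.63, 8.44 and 14.2 CPM in tumor and 13.0, 15.4 and 23.0 CPM in spleen, fell by 1.01 (SE 0.33, adjusted p = 0.0265), and lay apart at 3 months but not across the ages. Dhcr7 had 9.55, 13.6 and 14.4 CPM in tumor and 14.4, 21.6 and 31.6 CPM in spleen, and fell by 0.69 (SE 0.25, adjusted p = 0.044). Soat1, at 40.4, 71.1 and 106 CPM in tumor and 30.7, 57.7 and 86.8 CPM in spleen, and Nr1h2, at 52.4, 70.2 and 91.1 CPM in tumor and 19.97, 54.6 and 63.7 CPM in spleen, both rose by 0.52.

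Leaving out 1 library of conventional CD4 T cells at a time gave 1 to 8 called members. The count was 1 (Mylip) without tumor replicate 1 at 3 months, 2 (Insig2 and Abca1) without tumor replicate 3 at 3 months, and 2 to 5 without each of the 4 spleen libraries at 12 months. It was 4 without tumor replicate 3 or 4 at 12 months and 3 without spleen replicate 1 at 3 months. Spleen replicates 1 and 4 at 3 months held 7.85% and 10.6% of counts in ribosomal protein genes, against 3.53% to 4.16% in the other spleen libraries. Without both, 6 members were called, of which Abca1 and Mylip were shared with the 8, while Hmgcs1, Msmo1 and Abcg1 were lower and Ebp higher.

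In CD8 T cells, the cytotoxic T cells, synthesis enzymes went both ways and the efflux pumps fell. Of the 18 synthesis enzymes 4 rose (Fdft1, Sqle, Cyp51 and Ebp, all of the sterol steps) and 2 fell (Hmgcs1 and Mvd, both of the mevalonate steps), with a median of 0.02, against -0.01 over all 13285 genes. Over all members 8 rose and 6 fell, while 22.5% of all genes tested rose and 19.6% fell, 42.1% in all. The share of enzymes that rose was near that 22.5%. Ebp had 58.9, 83.9 and 113 CPM in the 8 tumor libraries, against 42.8, 52.1 and 66.4 CPM in the 8 spleen libraries (log2 fold change 0.76, SE 0.12, adjusted p = 2.07e-05). Cyp51 had 16.5, 34.8 and 53.0 CPM in tumor and 14.8, 19.7 and 27.3 CPM in spleen (log2 fold change 0.80, SE 0.19, adjusted p = 0.00148). Sqle had 25.9, 29.4 and 38.9 CPM in tumor and 14.0, 20.005 and 30.1 CPM in spleen (log2 fold change 0.65, SE 0.17, adjusted p = 0.0036). These 3 overlapped between the tissues across the ages and lay apart at 3 months. All 15 cell cycle genes rose. Their sum ran from 669 to 1577 CPM in tumor libraries and from 255 to 440 CPM in spleen ones, and its part in these results was not tested.

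Stard4 had 39.0, 72.0 and 101 CPM in tumor CD8 T cells, against 24.9, 34.2 and 46.2 CPM in spleen (log2 fold change 1.06, SE 0.15, adjusted p = 5.12e-06). Soat1 had 50.3, 80.7 and 105 CPM in tumor and 50.6, 56.6 and 64.8 CPM in spleen (log2 fold change 0.62, SE 0.13, adjusted p = 0.000307). Npc2 went the other way, with 359, 430 and 519 CPM in tumor, against 583, 676 and 751 CPM in spleen, and no overlap (log2 fold change -0.57, SE 0.08, adjusted p = 4.14e-06). Abcg1 had 162, 230 and 385 CPM in tumor, against 445, 513 and 602 CPM in spleen (log2 fold change -1.02, SE 0.14, adjusted p = 5.04e-06). Abca1 had 1.13, 5.44 and 16.5 CPM in tumor, against 21.7, 24.8 and 48.0 CPM in spleen (log2 fold change -2.12, SE 0.45, adjusted p = 0.00118). Both pumps lay apart. Hmgcs1 fell by 0.37 (adjusted p = 0.0398), a call lost in 11 alternatives with adjusted p up to 0.116. Mylip fell by 0.87 (SE 0.26, adjusted p = 0.0119), with tumor replicate 4 at 12 months, at 113 CPM, above every spleen library and the other 7 between 26.8 and 47.3 CPM. The tumor libraries numbered 4 had the highest mitochondrial shares of tumor CD8 T cells, 8.34% and 9.26%, and without them all 14 calls remained and Abca1 stood at -2.98.

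**Figure D2:**
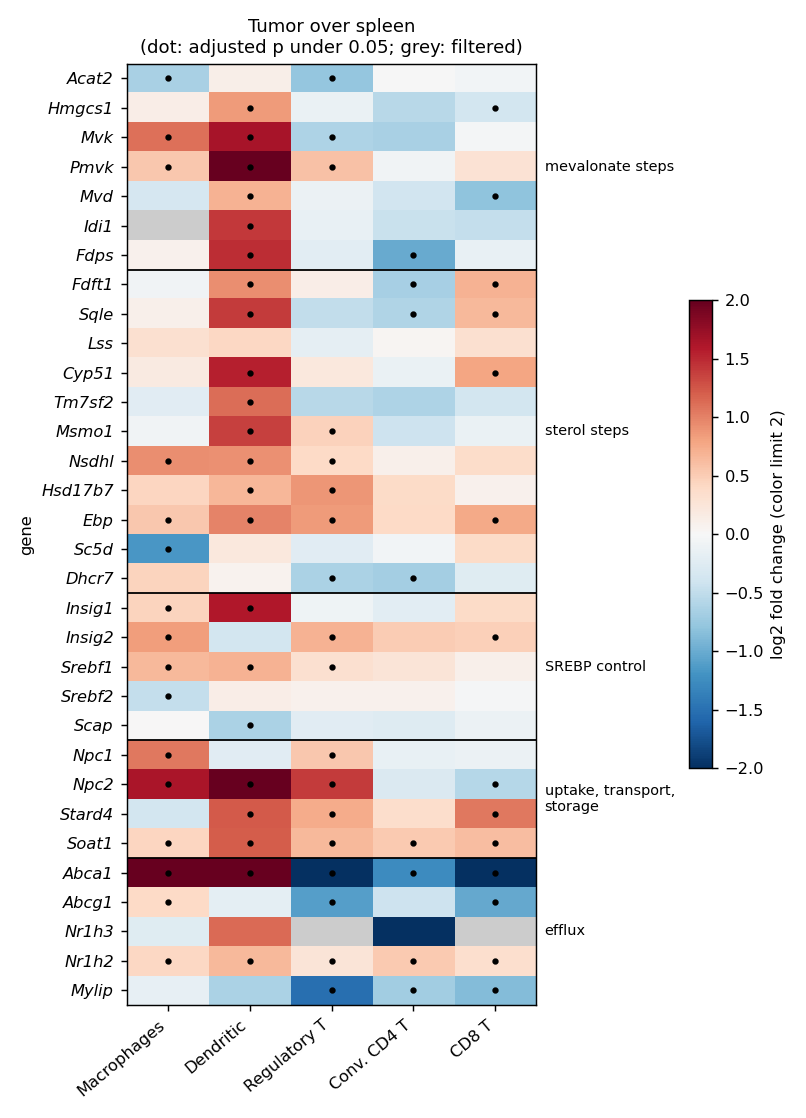
Log2 fold change of tumor over spleen for the 32 members (rows, grouped by role) in the 5 cell types (columns), with color limits of 2, dots for adjusted p under 0.05 and grey for genes filtered in that type. Abca1 is at 3.35 in macrophages and 3.18 in dendritic cells and between -2.12 and -1.26 in the 3 T cell types. The Nr1h3 value of conventional CD4 T cells is a fitted value with all 4 tumor libraries at 12 months without a count.

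Set against each other, myeloid cells (the mean of dendritic cells and macrophages) and T cells (the mean of the 3 types) differed in the tumor effect on 19 members, 18 of them greater in myeloid cells, while 15.4% of the 20244 genes tested were greater and 20.3% smaller. The median over the members was 0.67, against -0.24 over all genes. For synthesis enzymes the count was 11 greater and 1 smaller (Sc5d, -0.47), for the 5 control genes 2 greater (Insig1 and Srebf1), for the 4 uptake genes 1 greater (Npc2, 1.79) and for the 5 efflux genes 4 greater. The efflux genes were Abca1 (5.16, SE 0.40, adjusted p = 3.86e-16), Abcg1 (0.99, SE 0.16, adjusted p = 7.77e-07), Mylip (0.67, SE 0.21, adjusted p = 0.00897) and Nr1h3. The synthesis and uptake members together had 14 greater and 1 smaller of 27, with a median of 0.61, and the efflux members a median of 0.99. The myeloid mean pools types whose tumor effects on enzymes differed, as given above. Within types, Mylip was called in neither myeloid type and Abcg1 not in dendritic cells, while both fell in regulatory and CD8 T cells. Without the libraries numbered 3 the calls of Cyp51, Mvd, Mylip, Nsdhl and Tm7sf2 were lost. Without those numbered 1 the calls of Mvd, Mylip, Srebf1 and Tm7sf2 were lost. Those of Mylip and Nsdhl were lost without the libraries numbered 2, and that of Nr1h3 without those numbered 4. Marker RNA of other cells moved with the tissue too, and its part was not tested.

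Across all groups, Abca1 was highest in tumor macrophages, at a mean of 196 ± 97.1 CPM (SD, n = 8), and next in tumor dendritic cells, at 76.6 ± 56.2 CPM (SD, n = 7). These neighbours overlapped, since 2 of the 7 tumor dendritic cell libraries lay above the lowest macrophage library at 89.8 CPM. Then came spleen CD8 T cells (30.1 ± 9.48 CPM), spleen macrophages (21.3 ± 9.80 CPM), spleen conventional CD4 T cells (19.9 ± 8.17 CPM), spleen regulatory T cells (13.3 ± 4.22 CPM) and spleen dendritic cells (9.68 ± 4.45 CPM), each within the spread of its neighbour. The lowest were tumor conventional CD4 T cells (7.21 ± 4.40 CPM), tumor CD8 T cells (6.42 ± 5.38 CPM) and tumor regulatory T cells (2.68 ± 2.04 CPM).

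Abcg1 varied less. Its means were 496 CPM in tumor and 429 CPM in spleen for macrophages, and 428 CPM in tumor and 619 CPM in spleen for dendritic cells. The 3 T cell types had 193, 301 and 238 CPM in tumor (regulatory, conventional CD4, CD8), against 489, 431 and 511 CPM in spleen. In dendritic cells the libraries ran from 244 to 566 CPM in tumor, against 458 to 794 CPM in spleen, and the difference did not pass the test (log2 fold change -0.20, SE 0.18). In macrophages they ran from 305 to 632 CPM in tumor, against 359 to 476 CPM in spleen, and in conventional CD4 T cells from 221 to 366 CPM in tumor, against 172 to 532 CPM in spleen (log2 fold change -0.41, SE 0.19, adjusted p = 0.123).

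Nr1h3, the LXR form found mainly in macrophages and liver, was near absent in T cells and lower in dendritic cells than in macrophages. It had 21.9, 36.5 and 44.3 CPM in tumor macrophages and 36.3, 50.1 and 63.5 CPM in spleen macrophages, a difference that did not pass the test (log2 fold change -0.24, SE 0.16). In dendritic cells it had 3.79, 12.7 and 2.96 CPM in tumor at 12 months and 2.54, 19.3, 3.45 and 6.06 CPM in tumor at 3 months, against 1.44 to 8.64 CPM in spleen. The 2 highest of these libraries were again replicate 2 of both ages. In regulatory T cells the range was 0 to 1.20 CPM in tumor, against 0.409 to 7.20 CPM in spleen, and in CD8 T cells 0 to 1.77 CPM in tumor, against 0 to 3.23 CPM in spleen, and both types were filtered. In conventional CD4 T cells all 4 tumor libraries at 12 months were without a count, the 2 at 3 months had 0.575 and 2.94 CPM, and spleen libraries ran from 0 to 4.90 CPM. Its share in the myeloid against T cell comparison rests on such counts, so that its fitted value of 2.43 is no bound.

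Nr1h2, the LXR form present in most cells, passed the test in all 5 types, with log2 fold changes of 0.64 in dendritic cells, 0.52 in conventional CD4 T cells, 0.42 in macrophages, 0.34 in CD8 T cells and 0.26 in regulatory T cells. The call of conventional CD4 T cells (adjusted p = 0.0436) was lost in 12 alternatives, with adjusted p up to 0.231, that of regulatory T cells in 3 (up to 0.149) and that of CD8 T cells in 1 (0.0594). In regulatory T cells the libraries ran from 96.3 to 140 CPM in tumor, against 106 to 130.3 CPM in spleen, so that nearly all of the 0.26 is the TMM shift of 0.24. Its libraries ran from 47.6 to 89.6 CPM in tumor, against 41.4 to 62.6 CPM in spleen for dendritic cells, and from 95.0 to 140 CPM in tumor, against 80.6 to 121 CPM in spleen for macrophages. In CD8 T cells they ran from 63.3 to 89.8 CPM in tumor, against 56.6 to 70.5 CPM in spleen, and the tissues overlapped in all 3 types. The TMM shift is also part of the Nr1h2 values of dendritic cells (0.32 of 0.64) and macrophages (0.21 of 0.42). Mylip had means of 36.0 CPM in tumor and 70.6 CPM in spleen for dendritic cells (12.6 to 76.2 CPM in tumor libraries and 34.5 to 112 CPM in spleen ones) and of 60.2 CPM in tumor and 77.6 CPM in spleen for macrophages (45.2 to 72.5 CPM in tumor libraries and 55.6 to 100.3 CPM in spleen ones). Neither passed the test, at -0.63 (SE 0.31) and -0.16 (SE 0.13).

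**Figure D3:**
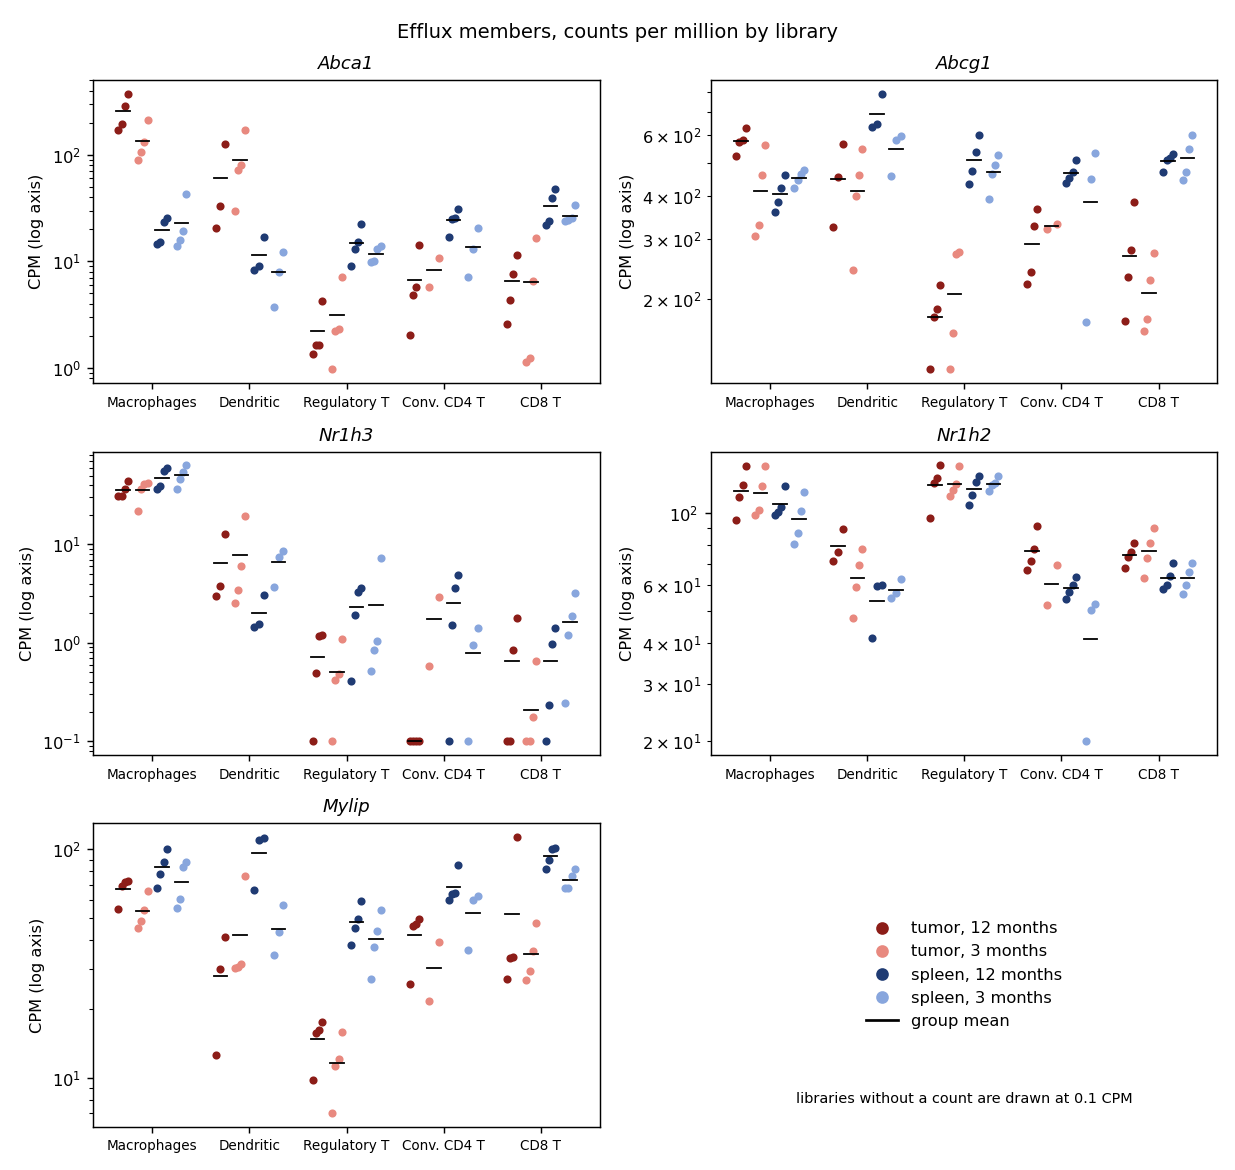
CPM of the 5 efflux members in each of the 74 libraries, on log axes, by cell type, tissue and age, with black bars for group means and libraries without a count drawn at 0.1 CPM. Tumor macrophages reach 377 CPM for Abca1, tumor regulatory T cells do not pass 7.07 CPM, and Nr1h3 stands above 20 CPM in macrophages only.

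Spleen libraries alone show how the pathway differed between cell types away from the tumor. Between myeloid and T cells 12 members were higher and 7 lower in myeloid cells, while 25.6% of the 20244 genes tested were higher and 27.1% lower. Soat1 had the clearest difference, at means of 391 CPM in macrophages and 145 CPM in dendritic cells, against 104, 58.2 and 57.5 CPM in regulatory, conventional CD4 and CD8 T cells (1.96, SE 0.09, adjusted p = 2.01e-29). Nr1h3 (3.36), Pmvk (0.85) and Npc1 (0.76) were also higher. Mvk (-0.96), Stard4 (-0.63), Dhcr7 (-0.62) and Srebf1 (-0.52) were lower. Of the synthesis enzymes 4 were higher and 4 lower, with a median of -0.03, against -0.09 over all genes. Without the libraries numbered 4, 11 of the members were called, against 19 in the full fit. Neutrophil markers summed to 3867 to 38932 CPM in spleen macrophages. B cell markers summed to 834 to 3317 CPM in spleen macrophages and 547 to 3673 CPM in spleen dendritic cells, against at most 124 CPM in spleen T cells. The part of these markers was not tested. Mitochondrial share also differed between the types pooled here, and cannot be told apart from them.

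Between spleen macrophages and spleen dendritic cells 9 members were higher and 7 lower in macrophages, while 22.7% of all genes tested were higher and 19.9% lower. Soat1 (1.47), Nr1h3 (3.54), Npc2 (1.08), Mvd (1.15) and Nr1h2 (0.84) were higher. Scap (-1.30), Npc1 (-1.20) and Srebf2 (-0.95) were lower, at means of 32.3, 41.8 and 89.0 CPM in macrophages, against 82.4, 98.0 and 185 CPM in dendritic cells. Neutrophil markers summed to 3867 to 38932 CPM in these macrophages, against 24.7 to 346 CPM in these dendritic cells, and their part was not tested.

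Regulatory and conventional CD4 T cells of the spleen differed in 12 members, with 10 higher and 2 lower in regulatory T cells, while 19.5% of all genes tested were higher and 17.2% lower. The 10 included 6 synthesis enzymes. Cyp51 had 76.8, 88.8 and 102 CPM in regulatory T cells, against 23.4, 32.2 and 51.8 CPM in conventional CD4 T cells, with no overlap (1.10, SE 0.20, adjusted p = 6.2e-06). Dhcr7 had 31.2, 48.1 and 57.5 CPM in regulatory T cells, against 14.4, 21.6 and 31.6 CPM in conventional CD4 T cells (0.91, SE 0.19, adjusted p = 4.67e-05). Lss (1.23), Mvd (1.04), Nsdhl (0.54) and Fdft1 (0.48) completed the group, and Nr1h2 (1.10), Soat1 (0.75), Insig1 (0.73) and Srebf1 (0.62) were higher too. Npc2 (-1.07) and Mylip (-0.64) were lower. The cell cycle genes summed to 807 to 1419 CPM in regulatory T cells and 267 to 457 CPM in conventional CD4 T cells, and their part was not tested. Mitochondrial share differed between these types as well, and cannot be told apart from them.

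Per kilobase of exon, so that genes can be compared, Npc2 was the most abundant member in every type and tissue but spleen dendritic cells. It had a mean of 370 CPM per kilobase in tumor macrophages and 249 in tumor dendritic cells, against 66.7 in spleen dendritic cells, where Abcg1 led with 84.9 CPM per kilobase. Among the enzymes Pmvk stood highest in tumor dendritic cells, at 89.4 CPM per kilobase, and Ebp in tumor macrophages, at 31.9. Idi1 was the lowest enzyme in macrophages of both tissues, at 0.445 CPM per kilobase in tumor and 0.548 in spleen. These lengths are those of the union of annotated exons and not of the transcripts each cell used.

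Age was tested within each tissue, 12 against 3 months, and 1 member in 1 of the 10 comparisons was called. In spleen conventional CD4 T cells Npc2 had 522, 517, 538 and 522 CPM at 12 months, against 976, 723 and 1189 CPM at 3 months. All 12-month libraries lay close together and below the 3-month ones, with a log2 fold change of -1.07 (adjusted p = 0.0144, SE 0.22). The background there was 3.92% of the 11726 genes tested. Replicates 1 and 4 at 3 months, the highest for Npc2, are those rich in ribosomal protein genes, and the plasma cell markers of replicate 4 came to 7427 CPM, where the remaining spleen libraries had 877 to 1088 CPM. The 5 regulatory T cell markers also lay apart between the ages, at 919.98 to 1264 CPM at 12 months and 231, 641 and 256 CPM at 3 months, and their part was not tested. Without replicates 1 and 4 the log2 fold change was -0.53 (adjusted p = 0.207), and the call was also lost when each of the 4 libraries at 12 months was left out in turn (log2 fold change -1.08 to -1.05, adjusted p 0.0591 to 0.0695) or without replicate 1 at 3 months (-1.04, adjusted p = 0.0811). Without replicate 3 at 3 months 4 members were called, Ebp, Insig1, Npc2 and Soat1.

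In the other 9 comparisons edgeR called no member. The number at an unadjusted p under 0.05 was 1 in macrophages of spleen and 6 in macrophages of tumor, 10 in dendritic cells of spleen and 0 in dendritic cells of tumor, 0 in regulatory T cells of either tissue, 1 in conventional CD4 T cells of tumor, and 2 in spleen and 0 in tumor for CD8 T cells. The background was 0% of genes called in macrophages of both tissues and in tumor dendritic cells, regulatory T cells and CD8 T cells, 0.593% in spleen dendritic cells (0.443% higher), 0.0489% in spleen regulatory T cells, 0.0311% in tumor conventional CD4 T cells and 1.02% in spleen CD8 T cells. DESeq2 called 2 members in spleen dendritic cells and none in the other 8. Its 2 calls were Mylip, with 66.2, 110.2 and 112 CPM at 12 months and 56.9, 34.5 and 43.4 CPM at 3 months, and Mvk, with 7.20, 4.02 and 9.57 CPM at 12 months and 21.1, 18.5 and 20.2 CPM at 3 months. By the titles both lay apart between the ages, with edgeR log2 fold changes of 1.09 (SE 0.24, adjusted p = 0.0605) and -1.51 (SE 0.39, adjusted p = 0.101). B cell markers also lay apart, at 2587, 3673 and 3221 CPM at 12 months, against 635, 547 and 1924 CPM at 3 months. So did plasma cell markers, at 8337, 6395 and 6606 CPM against 2665, 1762 and 5406 CPM. The part of these markers in the 2 calls was not tested. The libraries numbered 3 and 4 at 3 months, with 34.5 and 43.4 CPM of Mylip, carry the 12-month tag, and grouped by that tag Mylip ran from 34.5 to 112 CPM at 12 months, around the remaining 56.9 CPM at 3 months. With the tag followed, or without these libraries, only replicate 1, a male, was left at 3 months. Fits that rest on that library cannot decide whether a member differed with age. Mylip was called by edgeR without replicate 1 of either age (adjusted p = 0.0285 and 0.0311).

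In tumor macrophages Abca1, whose libraries are given above, had a log2 fold change of 0.91 with age (SE 0.31), unadjusted p = 0.014 from edgeR and adjusted p = 0.771. No interaction of age and tissue was called for any member in any of the 5 types, by edgeR or DESeq2, with 2, 4, 0, 2 and 2 members at an unadjusted p under 0.05 in macrophages, dendritic cells, regulatory, conventional CD4 and CD8 T cells. The background of interactions was largest in conventional CD4 T cells, where 0.0273% of genes were called higher and 0.641% lower.

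**Figure D4:**
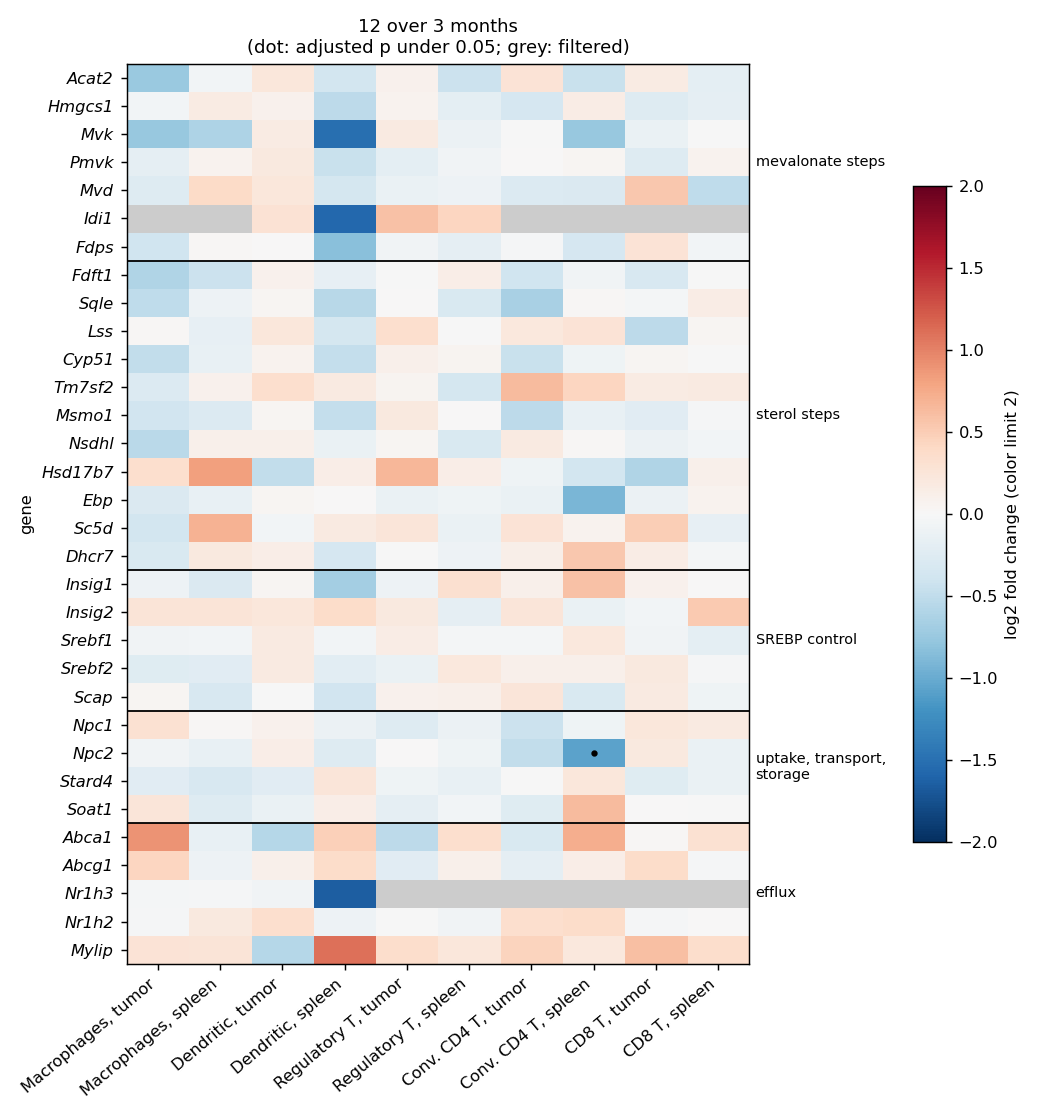
Log2 fold change of 12 over 3 months for the 32 members (rows) in tumor and spleen of the 5 cell types (columns), with color limits of 2, dots for adjusted p under 0.05 and grey for genes filtered in that comparison. The only dot is Npc2 in spleen conventional CD4 T cells, at -1.07.

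Other genes of lipid metabolism were counted from lists beside the members. Over all genes tested, 24.0% rose and 23.3% fell in dendritic cells, 23.9% rose and 27.8% fell in macrophages, 25.9% rose and 27.6% fell in regulatory T cells, 16.0% rose and 11.2% fell in conventional CD4 T cells, and 22.5% rose and 19.6% fell in CD8 T cells. Of 12 fatty acid synthesis genes, dendritic cells had 6 higher and 1 lower in tumor, and macrophages 3 higher and 3 lower of the 10 tested. Fads1, a fatty acid desaturase, rose by 4.04 (SE 0.26, adjusted p = 3.46e-10) in macrophages and 2.14 (SE 0.23, adjusted p = 3.22e-06) in dendritic cells. Scd1, the stearoyl-CoA desaturase and a target of both SREBP and LXR, fell by 5.50 (SE 0.33, adjusted p = 9.84e-11) in macrophages and 4.77 (SE 0.38, adjusted p = 2.02e-06) in dendritic cells. Of the 10 genes of the isoprenoid branches, which leave the pathway before squalene, 3 rose and 1 fell in both myeloid types, and in regulatory, conventional CD4 and CD8 T cells 1, 0 and 1 rose and 4, 2 and 4 fell. Fntb, a farnesyltransferase subunit, fell by 2.01 in regulatory, 2.51 in conventional CD4 and 1.33 in CD8 T cells.

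Of the 8 LXR-linked genes all were tested in myeloid cells, where 2 rose and 5 fell in macrophages and 4 rose and 3 fell in dendritic cells, beside 51.7% and 47.3% of all genes called in either direction. Smpdl3a, a phosphodiesterase gene that LXR switches on in human macrophages, fell by 1.75 (SE 0.10, adjusted p = 1.86e-11) in macrophages and rose by 1.26 (SE 0.16, adjusted p = 1.85e-05) in dendritic cells. The difference between those effects was 3.00 (SE 0.17, adjusted p = 1.35e-22). Of the 21 other sterol handling genes, 7 rose and 6 fell of 18 tested in macrophages and 7 rose and 4 fell of 20 in dendritic cells. Msr1, a scavenger receptor for modified lipoprotein, rose by 3.30 (SE 0.15, adjusted p = 2.78e-12) in macrophages and 6.72 (SE 0.74, adjusted p = 6.38e-05) in dendritic cells, where macrophage markers were higher in tumor as well. Stard5, a sterol-binding transfer protein, fell in all 5 types, with log2 fold changes of -1.39 in macrophages, -1.61 in dendritic cells, -0.86 in regulatory, -1.5998 in conventional CD4 and -1.39 in CD8 T cells.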

How the data were processed

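Gene counts were measured by Smart-seq2 in 74 libraries of 20 groups, with 1652812 to 9115858 counts a library. The authors deposited raw counts per gene symbol, made with STAR 2.5.3 and featureCounts on the mm10 build, per the submitters' processing notes. The annotation release, strand setting and handling of reads with several matches were not given in the sources used here. Of the 49480 symbols, 46891 matched the table of gene names. Of 103 pairs of replicate libraries, 0 held identical counts.

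CPM were computed from library totals. Tests used edgeR 4.0.16 (filterByExpr, TMM, robust quasi-likelihood fit) with limma 3.58.1 in R 4.3.3. Tumor against spleen and the interaction of age and tissue were fitted on the 4 groups of a cell type, age on the 2 groups compared, and comparisons across types on all 20 groups, with sex as a term wherever dendritic cells entered. Benjamini-Hochberg adjustment ran over every gene tested, and 0.05 was the threshold. Each SE is the fold change divided by the square root of the test's F. The procedure was tested on simulated data. Tables and figures used Python 3.11.15 with pandas 2.3.3 and matplotlib 3.10.9.

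Members and lists were chosen with earlier results of these data known. All members were accounted for. Values by library were given for up to 8 called members a comparison, by smallest adjusted p, and for all efflux members, and the others by counts and ranges. From each other list up to 3 genes a comparison were eligible to be named, in the same order.

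Alternatives were DESeq2 1.42.0, its size factors, no filter on low counts, the replicate number as a block, no sex term, and libraries left out, singly or where they stood apart. Same-numbered libraries deviated together in 1 comparison, tumor regulatory T cells of 12 against 3 months, with correlations of 0.1029 to 0.3084 over 4 pairs. This pairing comes from the data, not the labels.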

Additional observations from a re-analysis of the deposited data

Results flagged for a closer look

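In each group of 4 libraries, a member's highest or lowest library was checked for a gap to the nearest of the others that was large against the group's range. Of 414 groups of libraries by member 16 were flagged, and chance flags about 1 in 20. In macrophages these were Pmvk in tumor replicate 2 at 12 months, low at 40.8 CPM against 43.1 to 43.2 CPM in the others, and Npc1 in spleen replicate 3 at 12 months, high at 66.8 CPM against 31.0 to 34.8 CPM. In tumor dendritic cells at 3 months, Mvk stood high in replicate 4 (34.96 CPM against 24.0 to 25.8 CPM), Npc2 in replicate 2 (1644 CPM against 1134 to 1218 CPM) and Mylip in replicate 3 (76.2 CPM against 30.2 to 31.6 CPM). In regulatory T cells, Hsd17b7 was high in tumor replicate 4 at 12 months, at 41.0 CPM against 15.3 to 19.4 CPM.

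Conventional CD4 T cells gave 5 of the flags, all at 12 months. In tumor, Scap was high in replicate 3 (76.1 CPM against 49.8 to 53.2 CPM), where Mylip was low (25.6 CPM against 46.0 to 49.4 CPM), and Stard4 was low in replicate 2 (19.966 CPM against 69.0 to 78.3 CPM). In spleen, Msmo1 was low in replicate 2 (58.6 CPM against 73.9 to 75.0 CPM) and Mylip high in replicate 4 (85.5 CPM against 60.1 to 64.1 CPM). In CD8 T cells, Mylip was high in tumor replicate 4 at 12 months (113 CPM against 26.9 to 33.8 CPM) and Ebp in tumor replicate 2 at 3 months (113 CPM against 80.5 to 85.1 CPM). Spleen CD8 T cells had Scap high in replicate 4 at 12 months (83.1 CPM against 64.9 to 65.4 CPM), Fdft1 in replicate 1 at 3 months (22.7 CPM against 11.1 to 11.7 CPM) and Abca1 in replicate 4 at 3 months (34.0 CPM against 24.0 to 25.3 CPM).

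The tumor over spleen effect differed between cell types, by edgeR's test of the difference itself, in 37 results. Between myeloid and T cells the difference on the log2 scale was 5.16 for Abca1, 2.43 for Nr1h3, 1.85 for Mvk, 1.79 for Npc2, 1.28 for Fdps, 1.04 for Pmvk, 1.04 for Insig1, 1.01 for Tm7sf2, 0.99 for Abcg1 and 0.94 for Sqle. It was 0.88 for Hmgcs1, 0.83 for Dhcr7, 0.72 for Msmo1, 0.67 for Nsdhl, 0.67 for Mylip, 0.66 for Mvd, 0.61 for Cyp51, 0.48 for Srebf1 and -0.47 for Sc5d. Between dendritic cells and macrophages the difference was 1.58 for Stard4, 1.43 for Pmvk, 1.43 for Msmo1, 1.39 for Fdps, 1.38 for Cyp51, 1.38 for Sc5d, 1.35 for Tm7sf2, 1.30 for Sqle and 1.14 for Insig1. It was 1.04 for Mvd, 0.9988 for Fdft1, 0.78 for Soat1, 0.72 for Hmgcs1, 0.61 for Srebf2, 0.59 for Npc2, -0.63 for Scap, -1.20 for Insig2 and -1.30 for Npc1.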

How the results depend on the processing

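Of 163 called results for single members, 102 kept the call in every alternative computed, and none of 2299 values changed direction. Counts of called members moved by over 1.5 times in these comparisons. For conventional CD4 T cells of tumor against spleen, 8 members were called, 5 without the low-count filter, 5 with the replicate number as a block, and 1 to 8 with 1 library left out. For their age difference in spleen, 1 member was called, 2 without the filter (Ebp added), 0 without spleen replicates 1 and 4 at 3 months, and 0 to 4 with 1 library left out, the 4 without spleen replicate 3 at 3 months. Their interaction of age and tissue went from 0 to between 0 and 1 (Ebp, without that same library). For age in spleen dendritic cells, 0 became 2 with DESeq2, 2 without the filter and 0 to 1 with 1 library left out. For age in tumor macrophages, 0 became 1 without the filter (Abca1, 0.94, adjusted p = 0.000252). The spleen difference of macrophages and dendritic cells had 16 called members, and 10 with the block. The spleen difference of myeloid and T cells had 19, and 11 to 19 without 1 replicate number. The tumor effect in dendritic cells against macrophages had 18, and 8 to 15 without 1 replicate number. In each case the cause was not tested. Outside tumor regulatory T cells the libraries share only a number, and there the block called 0 members, as the fit without it did. Alternatives that leave out several libraries standing apart were chosen after seeing the data. In comparisons across cell types, libraries were left out by replicate number and not singly. Where 1 library was left in tumor conventional CD4 T cells or spleen dendritic cells at 3 months, it was assumed to vary like the other groups. Members with a few CPM, Idi1 and Nr1h3 above all, are limited by depth.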
